A study of Rattus norvegicus with 4 samples.

Results

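The regions described here are stretches of acetylated chromatin that were called both with and without lysolecithin, but over fewer bases with it. They come from chromatin immunoprecipitation sequencing (ChIP-seq) of rat oligodendrocytes, the cells that make myelin in the central nervous system. Chromatin was pulled down either for H3K27Ac, histone H3 acetylated on a lysine of its tail, or for Olig2, a transcription factor of the oligodendrocyte lineage. There were 4 libraries, 1 for each antibody and condition, so there were no replicates and no p-value is given. The vehicle groups (H3K27Ac and Olig2) were differentiated oligodendrocyte cultures without lysolecithin. The LPC groups were exposed for 6 h to lysolecithin (LPC, short for lysophosphatidylcholine), a lipid that dissolves membranes and serves to strip myelin experimentally, at a dose labelled as 12.5 mM; whether millimolar was meant could not be settled from the labels. All cells came from rat brain glia kept for 5 to 7 days in serum and 2 days in B104 medium, then grown with PDGF-AA at 10 ng/ml and bFGF at 20 ng/ml. Differentiation followed in medium with CNTF (10 ng/ml), a ciliary neurotrophic factor, and the thyroid hormone T3 (15 nM). Strain, age of the animals and number of cultures per library were not stated in the labels.

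Peaks of both H3K27Ac lists were pooled on the rat build rn4, and those at most 1 kb apart were joined. Regions were selected on these H3K27Ac values: a region was taken when it held peaks of both lists, spanned less than 5 kb, lay on an autosome, and had LPC cover of at most 0.75 times its vehicle cover. Cover means the number of bases inside peaks of one list. This gave 1522 narrowing regions out of 30610 pooled regions in all (X included), and out of the 19966 shared autosomal regions under 5 kb (7.62%). The other shared regions served for comparison, namely 12089 steady ones between both limits and 6355 widening ones (31.8%), in which vehicle cover was at most 0.75 times LPC cover. The ratio chose the members, so every H3K27Ac value below is a description and supports no test.

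H3K27Ac marks active promoters and enhancers, and its width at a site reflects how far acetyltransferases spread it over neighbouring nucleosomes. A nucleosome-poor stretch, where factors bind, can split the mark into neighbouring peaks. Olig2 is a basic helix-loop-helix factor that binds E-box motifs, is needed to specify the lineage, and sits on many oligodendrocyte enhancers. The gene next to each region is not named, because no gene annotation on the rn4 build was used. For the same reason the labelled cell type was not checked against marker genes.

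The LPC H3K27Ac list as a whole was the wider one, with 41.7 Mb in 38721 peaks against 34.4 Mb in 38902 vehicle peaks, so narrowing ran against the trend of the lists. Over the 19966 shared regions the median ratio of LPC to vehicle cover was 1.15, and widening regions outnumbered narrowing ones 4.18 to 1. The lists hold no read counts, so depth is unknown. Fewer cells carrying the mark and less mark per cell cannot be told apart in such cultures, nor can either be told apart from a lower yield of the LPC library at a site.

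**Figure D1:**
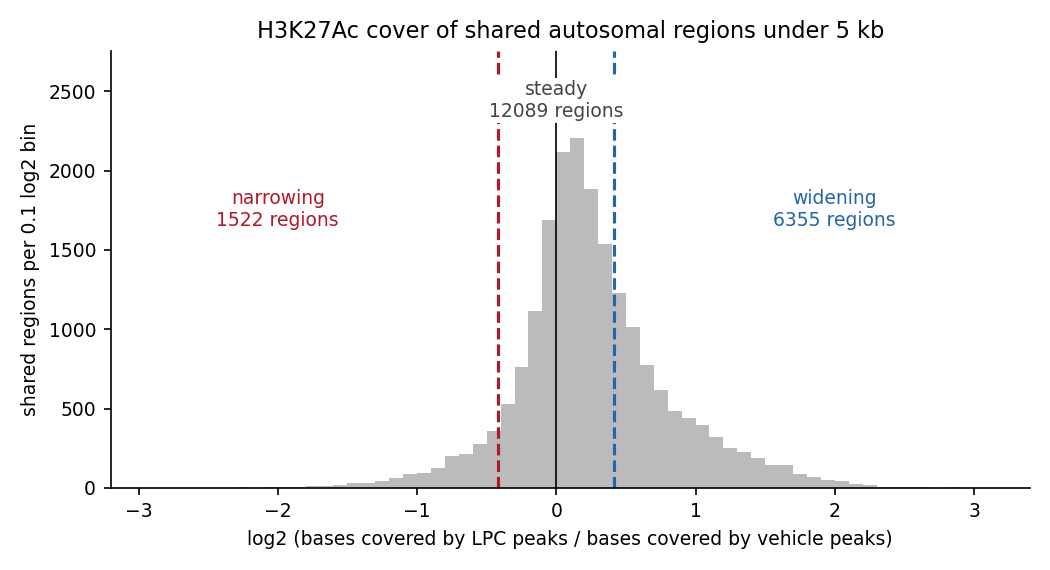
Number of shared autosomal regions under 5 kb (y axis) by the log2 ratio of bases covered by LPC and vehicle H3K27Ac peaks (x axis), in bins of 0.1. The dashed lines mark a ratio of 0.75 in either direction; the 1522 narrowing regions form the thin left tail of a distribution whose median ratio is 1.15.

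In the narrowing regions, vehicle peaks covered 1.96 Mb and LPC peaks 1.17 Mb. The median region had 1153.5 bp of vehicle cover (quartiles 865 and 1528 bp) and 635 bp of LPC cover (475 and 917 bp). The median ratio was 0.62, with quartiles of 0.52 and 0.69, and the lowest was 0.12. A ratio of 0.5 or less was reached by 322 regions (21.2%). Of the vehicle bases, 52.4% were also covered in LPC, against 90.1% in steady and 93.8% in widening regions. Of the LPC bases 12.4% fell outside vehicle peaks, and in 491 regions (32.3%) none did.

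The regions narrowed in 4 ways. In 811 (53.3%) every vehicle peak was still touched by an LPC peak, and the cover shrank around it. In these, median cover went from 1031 bp in vehicle to 601 bp in LPC, and 620 of them held a single vehicle peak. In 557 (36.6%) at least 1 vehicle peak held no LPC base, while the LPC bases of the whole region came to more than 0.75 times the bases of the vehicle peaks that were still touched. In 91 (5.98%) a peak was absent and the rest had also shrunk to 0.75 or below. The remaining 63 (4.14%) go against the label, because their vehicle and LPC peaks shared no base and lay side by side, with a median gap of 183 bp and a largest gap of 889 bp.

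At least 1 vehicle peak without an LPC base (an uncovered peak) was thus found in 711 narrowing regions (46.7%), against 882 steady (7.30%) and 212 widening ones (3.34%), a contrast that the rule itself favours. Among the 648 narrowing regions with both kinds of vehicle peak, the uncovered peaks had a median length of 501 bp and the touched ones of 661 bp. The median gap between an uncovered peak and its nearest touched neighbour was 185 bp. Of the 694 uncovered peaks, 654 were the first or last vehicle peak of their region, as were 671 of 709 in steady regions. Each peak of a vehicle pair is outermost by definition, so this count is largely set by the number of peaks. In 169 of the 648 regions the longest uncovered peak was longer than any touched one. All LPC bases of such a region, those outside the touched peaks included, came to a median of 0.96 times the bases of its touched vehicle peaks (quartiles 0.84 and 1.11).

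Peak counts followed the same division. A single vehicle and a single LPC peak made up 649 regions (42.6%), and of all shared regions of that kind 7.52% narrowed. In the same way a vehicle pair with a single LPC peak made up 619 regions (40.7%). That pattern was found in 19.5% of steady regions. Among the 600 single-peak regions whose peaks overlapped, the median peak went from 893 bp in vehicle to 536 bp in LPC. The LPC peak lay inside the vehicle peak at both ends in 342 of them (57.0%), against 11.5% of such steady regions. The centre moved by a median of 148.5 bp, against 72.5 bp in such steady and 172.5 bp in such widening regions. A larger shift was thus not particular to narrowing.

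Outer edges were compared between the lists at each end of a region. The outermost LPC edge lay inside the outermost vehicle edge at both ends in 850 regions (55.8%), at the lower-coordinate end only in 349 (22.9%) and at the higher-coordinate end only in 319 (21.0%). In the other 4 regions the LPC edge lay inside at neither end. Where both ends retreated, the smaller retreat had a median of 99.5 bp and the larger one 478 bp. In steady regions with both ends inside, these medians were 33 and 151 bp. Sorting each pair by size itself makes a gap between such medians. At the centre of vehicle acetylation 80.5% of narrowing regions were covered in vehicle and 62.7% in LPC. At 500 bp below the centre the values were 64.8% and 34.3%, and at 500 bp above it 66.1% and 37.8%. In steady regions the vehicle value at the centre was 87.9%.

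**Figure D2:**
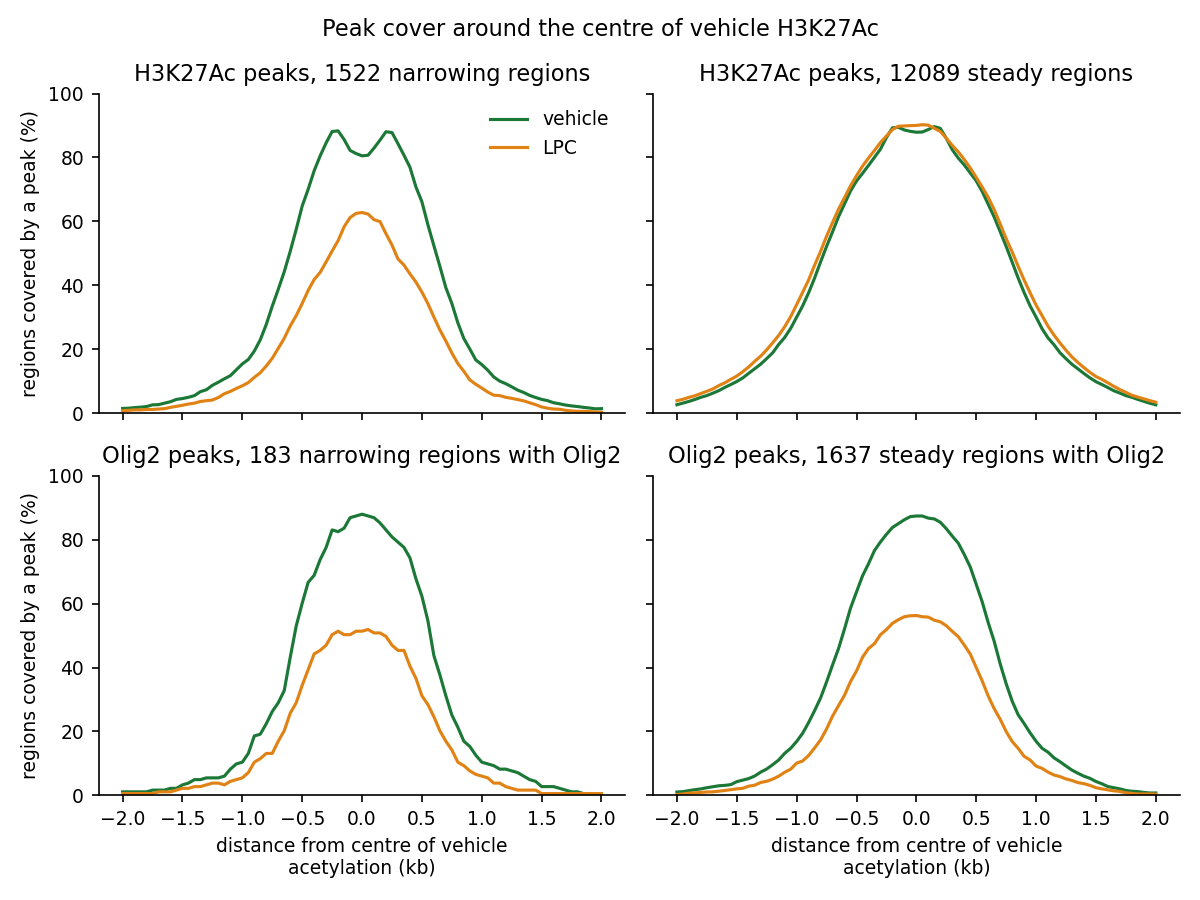
Share of regions covered by a peak (y axis, percent) by distance from the centre of vehicle acetylation (x axis, kb), for H3K27Ac (top) and Olig2 (bottom, regions with a vehicle Olig2 peak) in narrowing (left) and steady regions (right). Vehicle is green and LPC orange. The vehicle curve of narrowing regions dips at the centre to 80.5% while the LPC curve is highest there at 62.7%. Olig2 cover at the centre is 88.0% in vehicle and 51.4% in LPC in narrowing regions, and 87.4% and 56.3% in steady ones. Choosing regions by their vehicle Olig2 peak itself favours lower LPC cover.

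Narrowing was most frequent at sites of middling width. It took in 12.4% of shared regions with 750 to 1000 bp of vehicle cover and 11.6% of those with 1000 to 1500 bp. The share was 1.38% below 500 bp and 4.60% from 3000 bp. The shortest peak of the LPC list measured 179 bp, and its part in the low share below 500 bp was not tested. Widening had no such middle peak and fell with each broader class, from 69.0% of regions below 500 bp of vehicle cover to 1.35% of those from 3000 bp. The span limit of 5 kb leaves little room for widening at the broadest sites, so the low share there is partly set by the rule.

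The largest single reduction was on chromosome 5 (142713503 to 142718370). In vehicle this region held peaks of 1342, 1130 and 879 bp, 3351 bp in all, and in LPC a single peak of 428 bp inside the first of them. The vehicle Olig2 list had a peak of 680 bp on that first acetyl peak, and the LPC Olig2 list had none there. Cover at this site was lower in both LPC lists. On chromosome 18 (1981549 to 1985588) 5 vehicle peaks covered 3108 bp and 1 LPC peak covered 379 bp, a ratio of 0.12 that was the lowest of all. Another chromosome 18 region (52201600 to 52206296) went from 3835 bp in 5 peaks to 1754 bp in 2. A region of chromosome 1 (203917132 to 203919635) went from 2353 bp in 4 peaks to 525 bp in 1. None of these last 3 held an Olig2 peak in either list.

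The chromosome 13 region (76740814 to 76745683) showed the milder pattern at a broad site. Its 5 vehicle peaks covered 4507 bp, and 1 LPC peak of 2786 bp lay over 4 of them, with the outer edges drawn in by 1043 and 1041 bp. No narrowing region held more than 5 vehicle peaks, and the remaining ones with 5 held 1 or 2 LPC peaks: on chromosome 5 (21766323 to 21771207) from 3359 to 1899 bp, on chromosome 10 (37627544 to 37632349) from 3507 to 2384 bp, and on chromosome 11 (24520120 to 24524172) from 3054 to 2076 bp. Among regions with at least 1 kb of vehicle cover, low ratios were also found on chromosome 4 (18812462 to 18814600), from 1323 to 285 bp, and on chromosome 18 (50063931 to 50065931), from 1249 to 268 bp. In the latter the LPC peak shared no base with the 3 vehicle peaks.

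Regions beside the limit of 0.75 were of several kinds. Just inside it lay a region of chromosome 1 (168925755 to 168929935; 3453 bp in vehicle and 2589 bp in LPC), one of chromosome 3 (25904760 to 25906254; 679 and 509 bp) and one of chromosome 2 (10584825 to 10585825; 511 and 383 bp). In the last 2 the peaks of the lists did not overlap. Just outside it lay regions of chromosome 8 (53330017 to 53331910; 1786 and 1340 bp), chromosome 13 (43635012 to 43636844; 893 and 670 bp) and chromosome 5 (40338866 to 40340579; 1714 and 1286 bp).

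The Olig2 lists were not used to choose the regions. A vehicle Olig2 peak overlapped 183 of the 1522 narrowing regions (12.0%, exact binomial 95% interval 10.4 to 13.8). All shared regions under 5 kb gave 11.6%. Steady regions gave 13.5% (12.9 to 14.2), a difference (narrowing minus steady) of -1.52 percentage points with a Newcombe interval of -3.18 to 0.31. Widening regions gave 7.90% (7.25 to 8.59), which was 4.12 points below narrowing ones (2.44 to 5.97). Intervals cover counting error only, treat regions as independent, and say nothing of the spread between cultures.

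Vehicle cover moved with Olig2 presence. Narrowing regions with Olig2 had a median vehicle cover of 1269 bp and those without it 1121 bp, and the medians of steady regions were 1862 and 1438 bp. When steady regions were weighted to the vehicle cover of the narrowing ones, the difference in Olig2 presence was 0.91 points and so had the other sign. From 1000 to 1500 bp of vehicle cover, 12.7% of narrowing, 11.0% of steady and 9.65% of widening regions held a vehicle Olig2 peak. From 2000 to 3000 bp the shares were 18.4%, 20.2% and 16.7%.

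**Figure D3:**
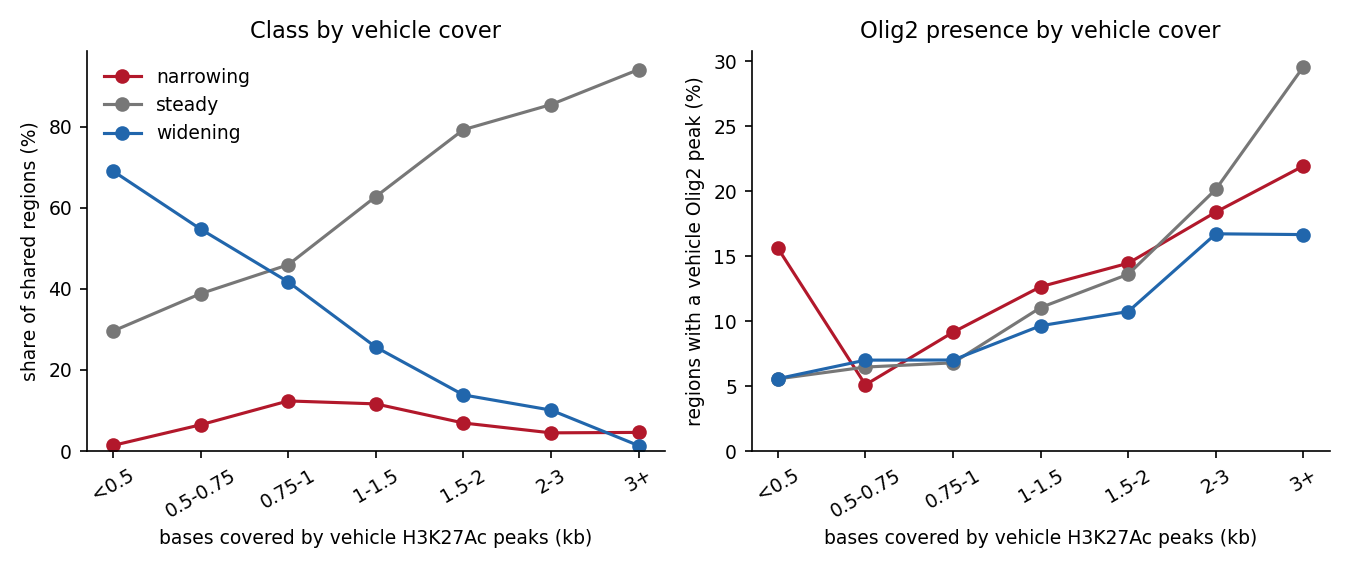
Left, share of shared regions in each class (y axis, percent) by the bases that vehicle H3K27Ac peaks cover (x axis, kb); right, share of regions with a vehicle Olig2 peak for the same classes. Narrowing peaks at 12.4% between 750 and 1000 bp, and Olig2 presence is higher in the broader classes, apart from the 32 narrowing regions below 500 bp (15.6%).

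Olig2 peaks in narrowing regions were missing from the LPC Olig2 list in 75 of 184 cases (40.8%, 33.6 to 48.2). Over all autosomal vehicle Olig2 peaks 35.9% were missing, and 35.6% of those on shared regions under 5 kb. In steady regions the share was 35.3% (33.0 to 37.6) and in widening regions 34.8% (30.6 to 39.1). The differences (narrowing minus steady, 5.47 points, -1.75 to 13.0; narrowing minus widening, 5.98 points, -2.08 to 14.2) were not distinguishable from 0 at this number of peaks, nor do their intervals exclude a difference of 13.0 points. Narrowing by a missing peak and narrowing around a kept one gave like shares, 42.0% (31.6 to 53.0) and 39.6% (29.7 to 50.1). There was no steady order by the degree of narrowing: the share was 48.9% (34.1 to 63.9) at ratios up to 0.5, then 41.2%, 33.3% and 43.2% in the bands ending at 0.6, 0.7 and 0.75.

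The LPC Olig2 list was the shorter one, with 3229 peaks (3.50 Mb) against 4965 (5.68 Mb) in vehicle. LPC-only Olig2 peaks were few in every class. Of the 109 LPC Olig2 peaks in narrowing regions, 0 were LPC-only, which allows a share of up to 3.33% (upper exact bound). In steady regions it was 13 of 1084 (1.20%) and in widening regions 11 of 341 (3.23%), both within that bound. The 109 Olig2 pairs of narrowing regions had a median length ratio (LPC over vehicle) of 0.95, and 74 of them were shorter in LPC. In steady regions the ratio was 0.94. The H3K27Ac cover of the narrowing regions with Olig2 had a median ratio of 0.63.

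**Figure D4:**
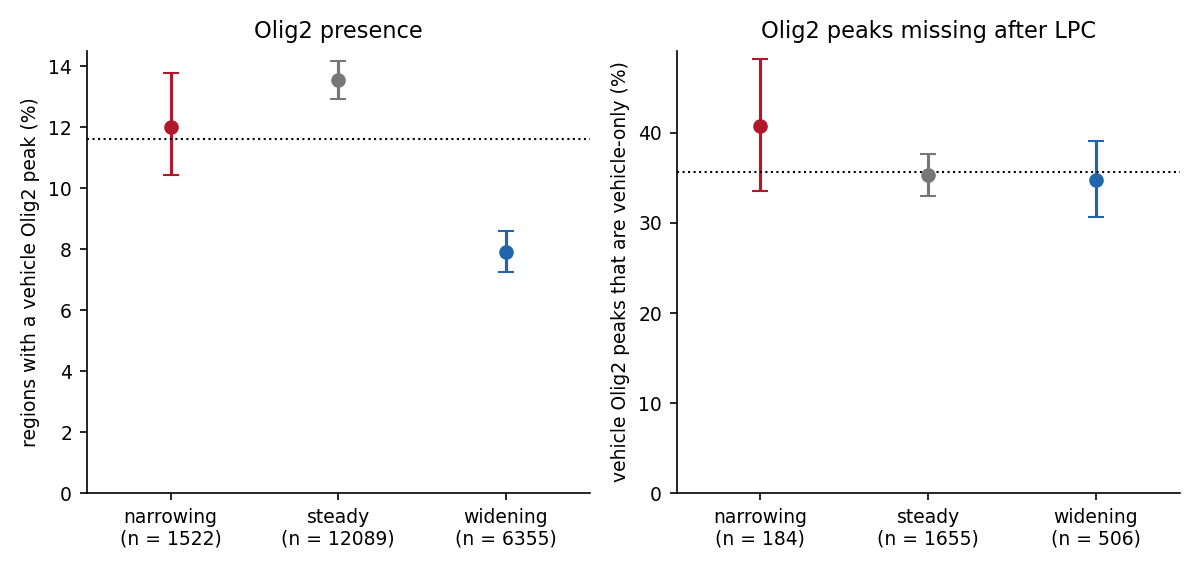
Left, share of regions with a vehicle Olig2 peak (y axis, percent); right, share of those Olig2 peaks that are absent from the LPC list. Points are the 3 classes with exact 95% binomial intervals, and dotted lines mark all shared regions under 5 kb (11.6% and 35.6%); narrowing and steady intervals overlap in both panels.

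Kept bases, those covered in vehicle and in LPC, come from the H3K27Ac values that chose the regions, so where Olig2 lay on them is given as a description. Of vehicle-acetylated bases under the vehicle Olig2 peak 63.4% were kept, and of those beside it in the same regions 35.6%. In 126 of the 163 regions with bases of both kinds (77.3%) a larger share was kept under Olig2, and in 35 a smaller one. Steady regions had the same direction, with 96.0% kept under Olig2 and 84.6% beside it. Of 1539 steady regions 997 (64.8%) kept a larger share under Olig2, 241 a smaller one and 301 equal shares. Steady regions with Olig2 kept 91.1% of their vehicle bases, which the rule favours and which limits the gap. Its size is therefore not comparable between the classes. Olig2 peaks sat near the middle of the vehicle acetylation, at a median distance of 182 bp from its centre, and the middle was also where bases were kept. Within the inner 50% of the vehicle span 71.2% of bases were kept under Olig2 and 56.0% beside it, and in the outer 50% the values were 52.5% and 28.5%.

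Olig2 midpoints were set against all vehicle bases, those under Olig2 included, so their gap is not comparable with the one above. Of 144 Olig2 midpoints that lay on vehicle acetylation, 95 (66.0%) fell on kept bases, while 53.3% of all vehicle bases of the same regions were kept. In the inner 50% of the span it was 70.1% of 107 midpoints against 68.1% of bases, and in the outer 50% 54.1% of 37 midpoints against 40.4% of bases. Midpoints on bases not kept belonged to vehicle-only Olig2 peaks in 42.9% of 49 cases and those on kept bases in 37.9% of 95, a difference of 4.96 points (-11.3 to 21.6).

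Uncovered and touched acetyl peaks are also set apart by those H3K27Ac values, and their Olig2 shares are likewise a description. A vehicle Olig2 peak touched 60 of 694 uncovered peaks (8.65%) and 95 of 779 touched ones (12.2%), a difference (uncovered minus touched) of -3.55 points. Counted by midpoint, Olig2 sat on 9 uncovered peaks (1.30%) and 51 touched ones (6.55%). Peak length moved with this. Within each length class the share was still lower on uncovered peaks, with overlapping exact intervals, and overlap is no test of a difference. The midpoint counts were not split by length. Below 500 bp the shares were 7.56% (5.00 to 10.9) of uncovered and 9.68% (5.84 to 14.9) of touched peaks. From 500 to 1000 bp they were 9.91% (6.92 to 13.6) and 13.0% (9.98 to 16.5), and from 1000 bp 1 of 17 and 20 of 154. In steady regions Olig2 touched 17 of 709 uncovered peaks (2.40%) and 137 of 1099 touched ones (12.5%), a difference of -10.1 points. By midpoint it sat on 4 uncovered (0.56%) and 76 touched peaks (6.92%) there. The lower share on uncovered peaks was thus not particular to narrowing regions.

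Among regions with a vehicle-only Olig2 peak, the chromosome 5 region above lost most bases. On chromosome 9 (74612841 to 74617047) H3K27Ac went from 3915 bp in 3 peaks to one peak of 2280 bp, and an Olig2 peak of 1854 bp was called in vehicle only. Vehicle acetylation covered 1699 bp of this Olig2 peak and LPC acetylation 1262 bp. On chromosome 20 (41673301 to 41676813) the outer 562 bp peak was absent in LPC and the 2172 bp peak shrank to 1323 bp. The vehicle Olig2 peak of 985 bp stood where acetylation was kept, over 903 bp. On chromosome 14 (92737205 to 92739424) cover went from 1669 to 471 bp, and on chromosome 6 (58848615 to 58851601) from 2762 to 1831 bp; in both, acetylation covered nearly as many bases of the vehicle-only Olig2 peak in LPC as in vehicle (471 against 478 bp, and 1325 against 1356 bp).

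At other sites Olig2 was called in both lists while the acetylation narrowed. On chromosome 17 (47980056 to 47982802) one vehicle peak of 2747 bp became one LPC peak of 1287 bp that was drawn in at both ends, by 822 and 638 bp. The Olig2 peak there measured 1063 bp in the vehicle list and 977 bp in the LPC list, and LPC acetylation covered 934 bp of the vehicle one. On chromosome 16 (10758907 to 10760605) cover went from 1564 to 366 bp with an Olig2 peak that measured 1319 bp in vehicle but 1374 bp in LPC. On chromosome 14 (102043652 to 102045621) it went from 1410 to 287 bp under an Olig2 peak of 1085 and 1206 bp. A region of chromosome 19 (41651475 to 41656183) had no LPC base on its 618 and 529 bp peaks, which lay away from Olig2. Acetylation covered 964 bp of the Olig2 peak in vehicle and 1063 bp in LPC. Chromosome 2 (218107877 to 218110499) showed the reverse: cover went from 2323 to 673 bp, and the 397 bp of acetylation under its Olig2 peak was absent in LPC although the Olig2 peak was longer there (1129 bp, against 836 bp in vehicle).

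**Figure D5:**
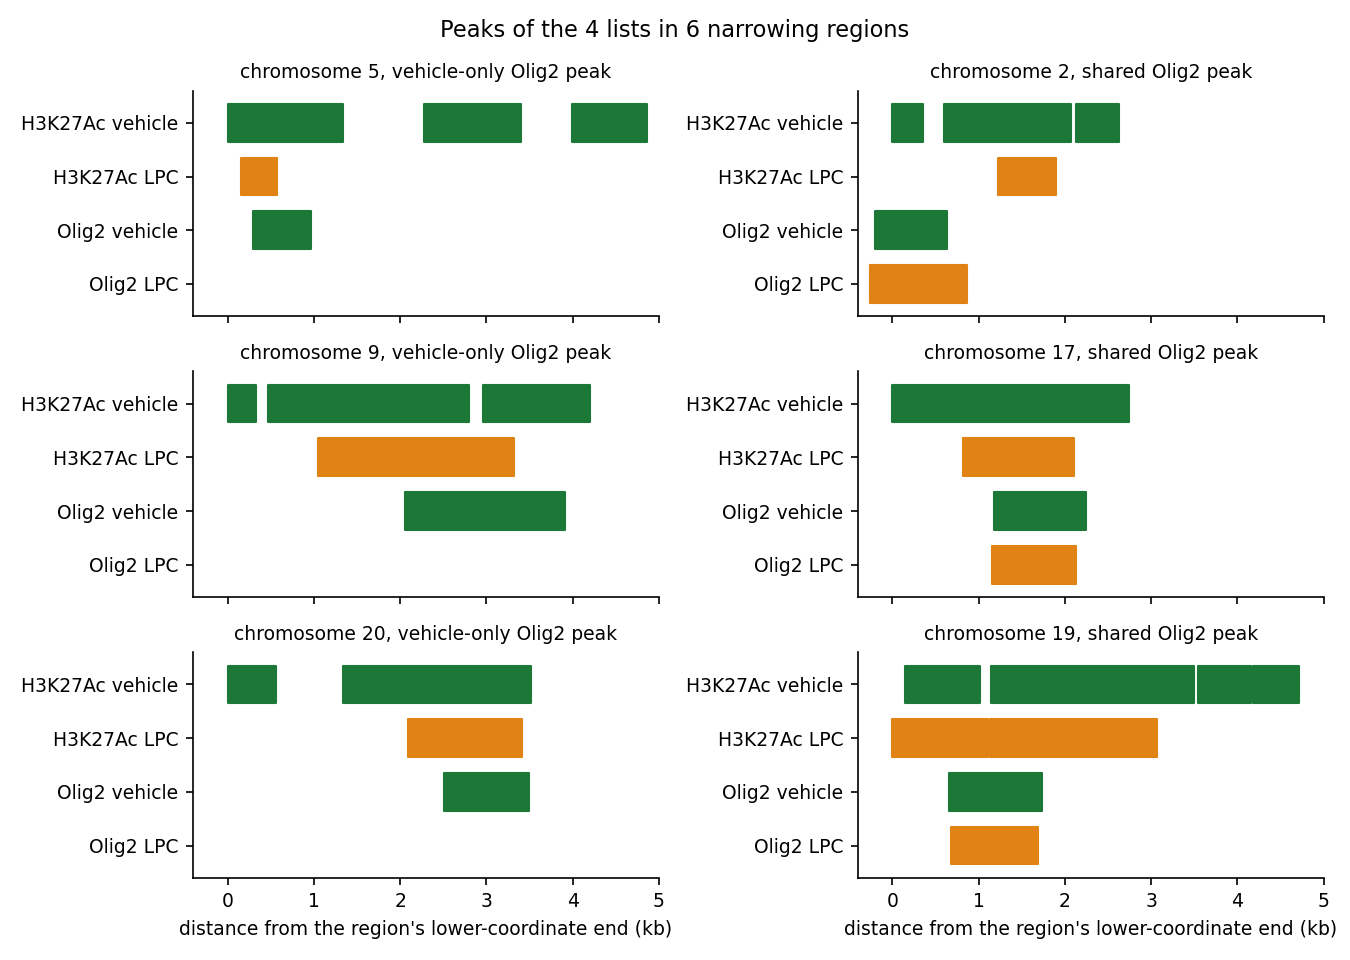
Peaks of the 4 lists (rows) in 6 narrowing regions, drawn to scale by distance from the lower-coordinate end of each region (x axis, kb); vehicle is green and LPC orange. The left column shows vehicle-only Olig2 peaks and the right column Olig2 peaks of both lists; in all but the chromosome 2 region the LPC acetylation lies partly or wholly under the vehicle Olig2 peak.

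Narrowing regions were found on every autosome. By chromosome they made up between 4.93% of shared regions (68 of 1378 on chromosome 10, interval 3.85 to 6.21) and 9.43% (56 of 594 on chromosome 11, 7.20 to 12.1). The median distance to the nearest pooled region was 11.5 kb, against 11.4 kb for steady regions, and 48.4% of narrowing (736) and 47.5% of steady regions had no other region within 12.5 kb. Where the nearest neighbour was a shared region under 5 kb, it was itself narrowing in 86 of 1024 cases (8.40%), close to the 7.67% found beside steady regions and to the 7.62% of all shared regions. Where it was called in one condition only, that condition was vehicle in 40.6% of 453 cases, and in 38.3% beside steady regions. Of 1044 stitched domains with at least 3 shared regions, 24 held 2 narrowing ones and 0 held 3 or more.

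Neighbouring shared regions that all narrowed formed 99 runs of 2, 11 runs of 3 and 3 runs of 4 members. The runs of 4 were the longest, and whether they exceed what a share of 7.62% would give was not tested. On chromosome 2 (239510432 to 239828464) the 4 regions together went from 4759 to 2257 bp of cover. On chromosome 5 (140657139 to 141145501) they went from 4220 to 2086 bp, and on chromosome 7 (77136982 to 77467433) from 5765 to 3486 bp. These runs extended over 318, 488 and 330 kb. A single one of these regions held Olig2, on chromosome 7 (77464856 to 77467433), where the Olig2 peak went from 924 bp to 684 bp and the acetylation under it was kept (922 bp in vehicle and 921 bp in LPC).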

How the data were processed

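For each library the deposited file is a list of peak positions on 3 columns. It gives no count or score (unit: other), so the signal within a peak was not compared. Peaks were called with MACS 1.4.2 on rn4, per the submitters' processing notes. How reads were aligned, with which threshold and input peaks were called, and the depth were not stated in the labels. Starts were read as 0-based and are printed 1-based.

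Lists were pooled and compared in Python 3.11.15 (numpy 2.4.6, SciPy 1.17.1, matplotlib 3.10.9). The joined regions and vehicle-only Olig2 peaks were checked against bedtools 2.31.1, with 0 differences, and the code was tested on simulated data. Olig2 peaks counted from 1 bp of overlap. Shares carry exact binomial and differences Newcombe 95% intervals. Stitched domains join pooled regions at most 12.5 kb apart. X was left out of the main results but is counted among the 30610 pooled regions.

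The members, lists and comparisons were chosen with earlier results of these data known. Regions were named by fixed rules: most bases lost, lowest ratio, most bases lost with vehicle-only or shared Olig2, most vehicle peaks, longest runs, and nearest the limit. The closing alternatives vary joining, limits and the Olig2 rule. Gene lists, sequence features and the gene table of another rat assembly were not used here.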

Additional observations from a re-analysis of the deposited data

How the results depend on the processing

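Of 95 values recomputed under 13 alternative settings for 10 results, 71 stayed within the interval (or, for the number of regions, within 1.5 times) of the value given above and 24 did not. The limit on the ratio moved most. At 0.5 there were 322 regions (1.61% of shared ones), 14.6% held Olig2 (2.46 points above the regions then classed as steady, -1.02 to 6.76), 48.9% of their Olig2 peaks were vehicle-only (13.7 points above steady, -0.13 to 27.6), 45.9% of Olig2 midpoints lay on kept bases, 64.6% of regions had an uncovered vehicle peak and 84.6% kept more under Olig2 than beside it. At 0.9 there were 3374 regions (16.9%), and the last 3 shares were 79.9%, 33.4% and 84.4%. With at least 1 kb of vehicle cover 977 regions remained (8.10%), 14.2% held Olig2 and 55.3% had an uncovered peak. With spans below 2.5 kb, 8.51% of shared regions narrowed, the difference in Olig2 presence was 0.31 points, and 43.3% had an uncovered peak, as with joining at 500 bp (43.3%). The difference in Olig2 presence from steady regions was also moved by weighting to vehicle cover (0.91 points) and replaced by 4.12 points against widening regions. At a ratio of 0.9 the difference from steady regions was -2.07 points (-3.52 to -0.59), an interval without 0, where the one given above holds 0. The Olig2 difference between uncovered and touched peaks ranged from -6.12 points (ratio of 0.9) to -3.06 (2.5 kb). It remains a description, because the H3K27Ac values that chose the regions also set these peaks apart. The cause of these changes was not tested. Leaving out the 63 regions without a common base, and the last 3 of the 10 results, were added after seeing the data. No setting could leave out a replicate, and libraries could not be paired because each group has 1 library. Uncovered and touched peaks lie in the same regions, and the difference between them did not use that pairing.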

Other observations

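On X, which the regions above leave out, 22 of 428 shared regions under 5 kb narrowed (5.14%, 3.25 to 7.68) and 149 widened (34.8%). Of the autosomes, chromosome 10 had a lower share of narrowing regions (4.93%).

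Among the 91 regions that both lacked a peak and shrank elsewhere, 16 held a vehicle Olig2 peak (17.6%, 10.40 to 26.98). That interval holds the 11.6% of all shared regions under 5 kb. Of the 16 Olig2 peaks, 8 were vehicle-only (50%, 24.65 to 75.35), and this interval holds the 35.6% found over all shared regions under 5 kb. In the 63 regions whose peaks lay side by side, 3 held Olig2 (4.76%, 0.99 to 13.3).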
